A study of Mus musculus with 8 samples.

Results

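The genes described here are 10 histone acetyltransferase genes of the mouse, chosen by symbol from a table of 55292 gene rows: Ep300, Crebbp, Kat2a, Kat2b, Kat5, Kat6a, Kat6b, Kat7, Kat8 and Hat1. The study names p300, the product of Ep300, as an acetyltransferase that the long noncoding RNA lncSmad7 brings to enhancers. Counts came from poly(A)-selected RNA of E14 mouse embryonic stem cells of strain 129/Ola, grown on gelatin with serum and leukaemia inhibitory factor. The groups were untreated wild-type cells, untreated cells of genotype lncSmad7-/-, and lncSmad7-/- cells labelled as transfected with Smad7, with 24 h in their description and 2 libraries in each group. The sources used here do not say whether the knockout is 1 clone or how its locus was altered. The knockout transfected with lncSmad7 is not analysed here.

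Histone acetyltransferases transfer an acetyl group from acetyl-CoA to lysines of histone tails. p300 and its paralogue CBP, encoded by Crebbp, are coactivators that transcription factors bring to enhancers, where they acetylate histone H3 at lysine 27. GCN5 (Kat2a) and PCAF (Kat2b) are alternative catalytic subunits of the SAGA and ATAC complexes. The MYST family comprises TIP60 (Kat5), MOZ (Kat6a), MORF (Kat6b), HBO1 (Kat7) and MOF (Kat8), each of which works with its own scaffold subunits. HAT1 acetylates newly made histone H4 before it is deposited on DNA. In stem cells these enzymes are known for roles in enhancer activity, self-renewal and the exit from pluripotency.

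The 6 libraries held between 13392941 and 20209760 counts. The libraries labelled as Smad7-transfected, called Smad7-labelled below, had the smallest totals and a mitochondrial share of 2.33% to 2.48%, against 1.37% to 1.58% in the others. Levels are given as CPM, read counts relative to a library size scaled with TMM factors. The lncSmad7 feature stood at 13.98 and 12.36 CPM in the wild-type libraries, 7.14 and 5.52 in knockout libraries and 10.78 and 11.2 in Smad7-labelled ones. Smad7 stood at 97.6 and 97.7, 75.5 and 69.6, and 93.8 and 99.4 CPM in the same order. Both were thus lower in the knockout and higher again in the Smad7-labelled libraries, where Smad7 overlapped its wild-type level. Directions drawn from those libraries rest on their label. The 10 stem cell markers summed to 5260 and 5319 CPM in the wild-type libraries, 7002 and 7111 in knockout libraries and 4670 and 4652 in Smad7-labelled ones, with Pou5f1 at 569 CPM or more in each. Markers of fibroblasts summed to 4.66 to 8.75 CPM, of trophectoderm to 4.99 to 13.91, of neuroectoderm to 35.15 to 61.3, of mesoderm to 4.74 to 8.58 and of 2-cell-like cells to at most 0.306 over the 6 libraries. Primitive endoderm markers summed to 287.8 and 295.8 CPM in the wild-type libraries, 149.4 and 152.3 in knockout libraries and 188.4 and 197.6 in Smad7-labelled ones. The sums understate the fall of single markers. From wild type to knockout all 7 were lower, with log2 folds from −5.855 to −0.414 and a median of −3.72. From knockout to Smad7-labelled libraries their log2 folds ran from 0.164 to 2.837, with a median of 0.953. Sums of other lists also hid single markers. Neuroectoderm markers ran from −0.808 to 2.415 in knockout against wild type, and from −1.128 to 4.373 in Smad7-labelled against wild-type libraries. Stem cell markers ran from −0.902 to 0.866 and from −2.187 to 0.911 in the same comparisons. The part of these changes, of depth or of the mitochondrial share in the results below was not tested. In bulk RNA, fewer cells of a type and less RNA per cell cannot be told apart.

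All 10 genes passed the filter on low counts and were expressed in every library. Per kilobase of exon, the level of Hat1 was the highest in all groups, at 163 ± 4.2 CPM per kb in wild type (SD, n = 2), followed by Kat2a at 64.4 ± 2.2 and Kat7 at 55.6 ± 0.82. Kat2b (25.2 ± 0.97), Kat6a (23.6 ± 0.048), Ep300 (21.8 ± 1.4) and Kat6b (21.7 ± 0.71) formed a middle group, in which Ep300 and Kat6b overlapped. Kat5 (11.6 ± 0.70), Kat8 (10.2 ± 0.12) and Crebbp (6.95 ± 0.51) were lowest. In the knockout Kat6b and Kat6a overlapped and Ep300 stood below both, at 16.5 ± 0.28 CPM per kb. In the Smad7-labelled libraries Crebbp (6.73 ± 0.46) and Kat5 (6.34 ± 0.15) overlapped at the bottom. Lengths were unions of annotated exons. With the length of the longest transcript instead, Kat7 stood above Kat2a in all groups, and Kat6b moved up to 47.3 ± 1.5 CPM per kb in wild type.

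**Figure D1:**
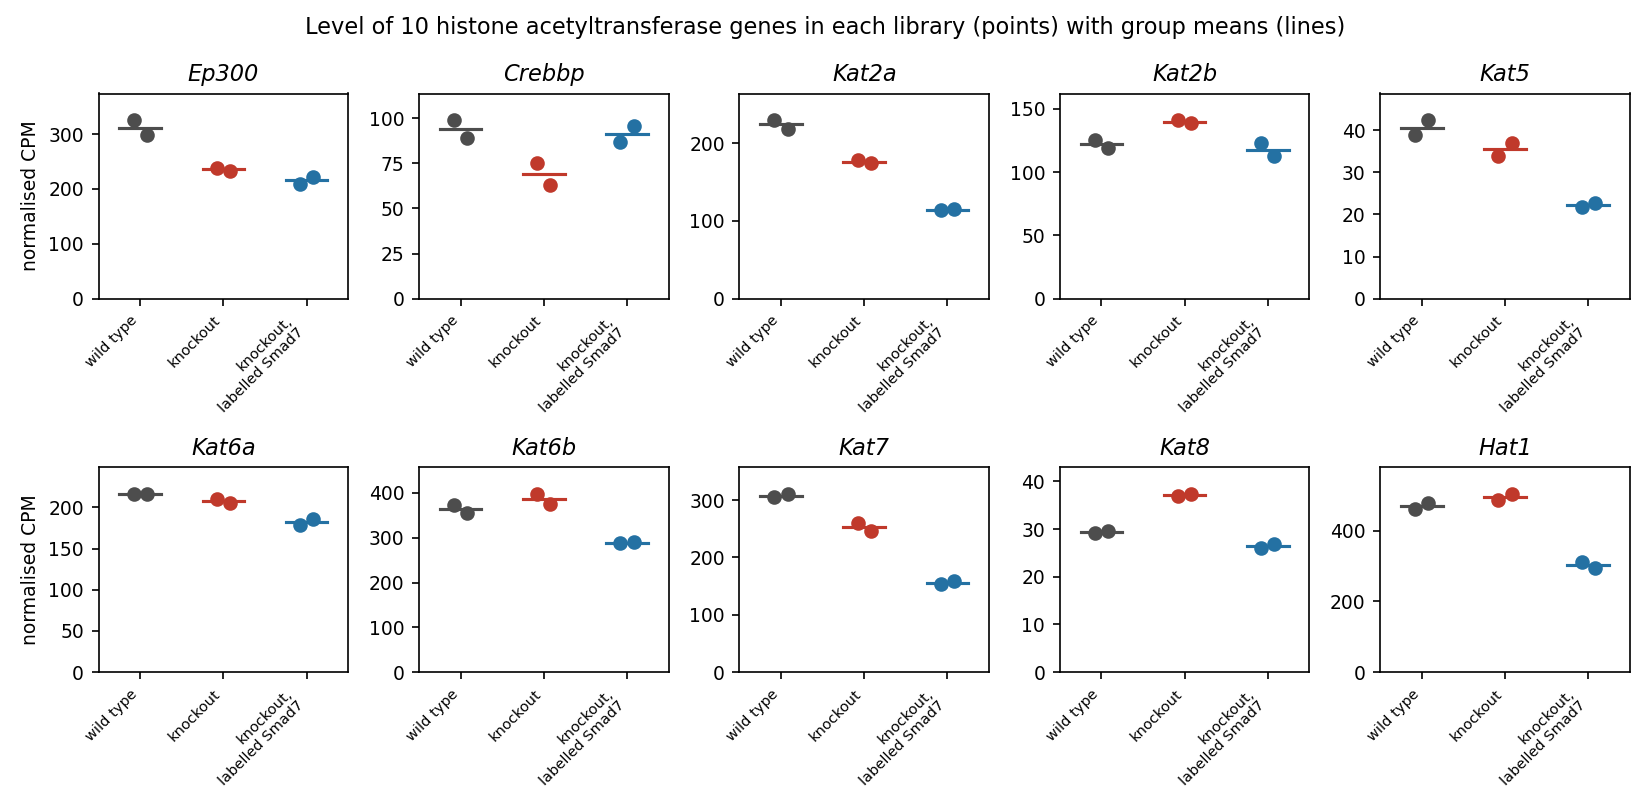
Normalised CPM (vertical axes, linear from 0) of the 10 acetyltransferase genes in the 6 libraries. Points are libraries and lines are means of 2 libraries. Ep300, Kat2a, Kat5, Kat6a and Kat7 step down over the 3 groups, though the first step of Kat6a was not called. Crebbp dips in the knockout, at 63.3 and 75.0 CPM, and stands at 86.7 and 95.5 CPM in the Smad7-labelled libraries.

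Knockout and wild-type libraries were compared to ask which genes differ in cells of genotype lncSmad7-/-, where the lncSmad7 feature was lower but not absent. In the knockout 5 of the 10 genes fell (Ep300, Crebbp, Kat2a, Kat5 and Kat7), 3 rose (Kat2b, Kat6b and Kat8), and Kat6a and Hat1 did not pass the test. By edgeR's quasi-likelihood test, with a Benjamini-Hochberg adjusted p under 0.05, 67.7% of all 17342 genes tested were called, 34.5% higher and 33.3% lower, so the count of 8 called is near the background. Genes at least as abundant as Kat8, the lowest member at a mean of 31.0 CPM, had 33.6% called higher and 51.2% lower, a threshold set after values were seen. The median log2 fold of the 10 genes was −0.13, against −0.12 over those abundant genes and 0.02 over all genes, so it was close to that of genes of like abundance. Against a minimum change of 1.2-fold (glmTreat), which called 49.1% of all genes, 3 members remained lower (Ep300, Crebbp and Kat2a) and 0 were higher.

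Smad7-labelled libraries were next compared with untransfected knockout libraries. Added Smad7, transfection itself and the 24 h of the description cannot be told apart in this comparison. Here 9 of the 10 genes fell and 1, Crebbp, rose. Among all genes 74.6% were called, 37.8% higher and 36.8% lower. Of genes at least as abundant as Kat8, 26.3% were higher and 62.3% lower. The median log2 fold of the 10 genes was −0.45, against −0.30 over those abundant genes and 0.04 over all genes. The 10 genes together took 0.197% and 0.201% of all counts in the knockout and 0.175% and 0.177% in the Smad7-labelled libraries. With library size scaling, which moved the median of all genes to 0.29, 6 members were lower and 2 higher, Ep300 among the latter (0.12), and relative to that median Ep300 stood at −0.17. Against a 1.2-fold minimum, where 58.7% of all genes were called, Hat1, Kat7, Kat5, Kat2a, Kat8 and Kat6b remained lower and Crebbp higher.

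The third comparison, of Smad7-labelled libraries with wild type, shares its libraries with the other two. In it 7 genes were lower, 0 were higher, and Crebbp, Kat2b and Kat8 did not pass. Kat7 (−0.98), Kat2a (−0.97), Kat5 (−0.87) and Hat1 (−0.64) were lower, as were Ep300 (−0.53), Kat6b (−0.33) and Kat6a (−0.25). Kat6b and Kat6a turned upward with library size scaling, where Hat1 was −0.24 and Ep300 −0.14, while Ep300 was −0.93 with GC and length offsets. The median of the 10 genes was −0.43, against −0.38 over genes at least as abundant as Kat8 and 0.09 over all genes. By unadjusted p and by DESeq2 0 were higher too, while with library size scaling 4 were. With RLE scaling 9 were lower, Kat2b (adjusted p = 0.021) and Kat8 (0.010) among them. Among all genes 81.9% were called, 43.1% higher and 38.8% lower, and of genes at least as abundant as Kat8 28.6% were higher and 63.1% lower. The share of all genes called was 71% against a 1.2-fold minimum, where 6 members were lower.

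**Figure D2:**
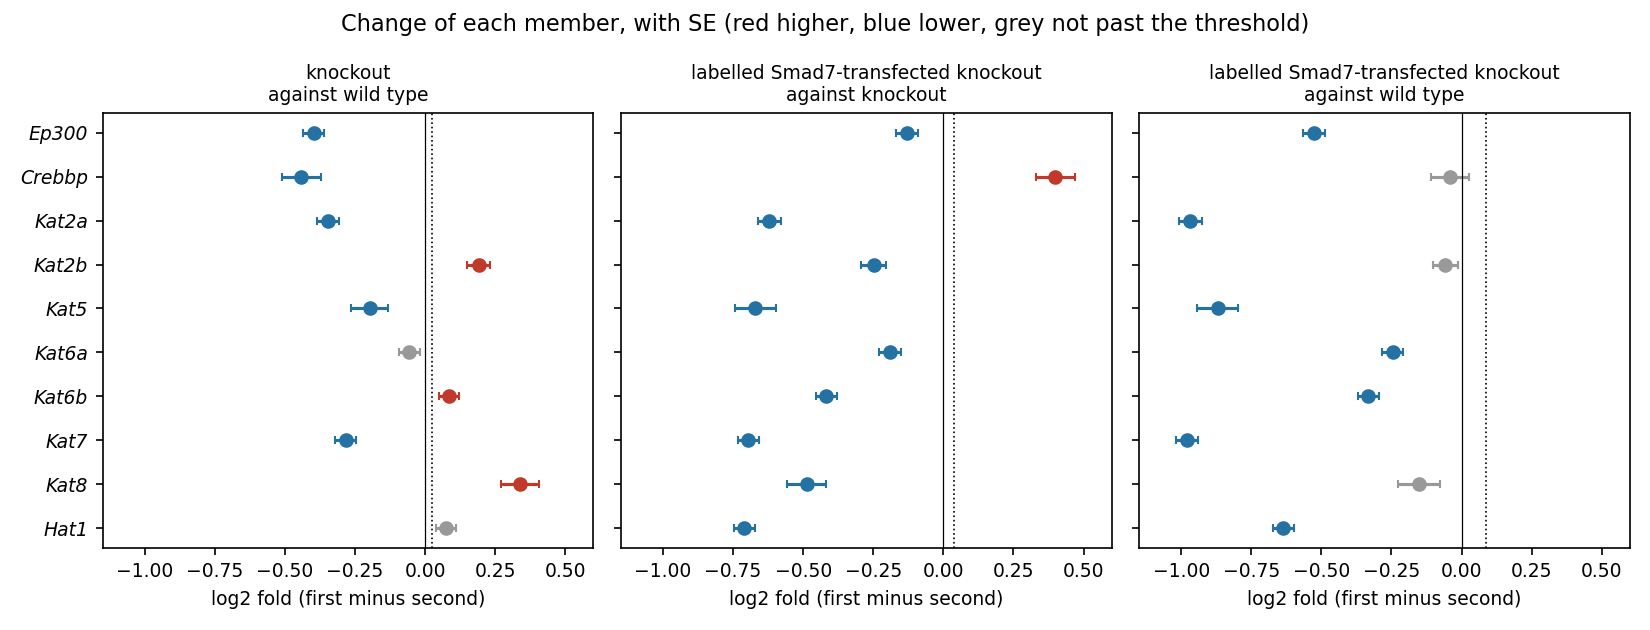
Log2 fold with its SE for each gene in the 3 comparisons (horizontal axes, first group minus second). Red points are called higher, blue points lower and grey points are not past the threshold, and the dotted line is the median of all genes. Crebbp is the 1 red point in the middle panel, at 0.40.

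Ep300 lies on chromosome 15 of GRCm38, from 81585351 to 81652077 (plus strand), the build of all gene positions given here. Its level was 325.2 and 297.5 CPM in the wild-type libraries, 239.0 and 233.3 in knockout libraries and 209.3 and 222.2 in Smad7-labelled ones. The groups did not overlap, and wild type was highest. Ep300 fell in the knockout to 0.759 of its wild-type level (log2 fold −0.40, SE 0.038, adjusted p = 2.3e-18), and this call held under all 13 alternative settings, from −0.61 to −0.25. The median of genes on chromosome 15 was −0.11. The further step to the Smad7-labelled libraries was smaller (−0.13, SE 0.039, adjusted p = 0.0019). It was lost when genes needed at least 1 CPM in 4 libraries (−0.03, adjusted p = 0.53) and turned to 0.12 with library size scaling, while it was −0.32 with GC and length offsets.

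Crebbp lies on chromosome 16, 4081328 to 4213997, on the minus strand. Its level was 98.9 and 89.2 CPM in the wild-type libraries, 75.0 and 63.3 in knockout libraries and 86.7 and 95.5 in Smad7-labelled ones. The Smad7-labelled and wild-type libraries overlapped, and both lay above the knockout. Crebbp was lower in knockout than in wild-type libraries (−0.44, SE 0.069, adjusted p = 1.1e-05). It rose 1.32-fold in the Smad7-labelled libraries over the knockout (0.40, SE 0.069, adjusted p = 3.6e-05). Knockout replicate 2, the lowest library, weighed on the size of the rise, which was 0.26 without it. With offsets for GC content and transcript length the rise was 0.15 (adjusted p = 0.0053). Between Smad7-labelled and wild-type libraries the log2 fold was −0.04 (SE 0.067, adjusted p = 0.58), but −0.51 with those offsets, where it passed.

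The ratio of 2 genes within a library does not depend on depth or scaling. Ep300 had 3.29 and 3.33 counts for each count of Crebbp in the wild-type libraries, 3.19 and 3.69 in knockout libraries and 2.41 and 2.33 in the Smad7-labelled libraries. The ratio was thus lowest in both Smad7-labelled libraries, while wild type lay within the range of the knockout. Its log2 value differed by −0.53 between Smad7-labelled and knockout libraries and by −0.48 between Smad7-labelled and wild-type libraries. An exact two-sided permutation test gave p = 0.33 for each (0.37 adjusted over 9 ratio comparisons), the smallest p that 2 libraries against 2 allow.

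Kat2a, which encodes GCN5, lies on chromosome 11, 100704746 to 100712465, on the minus strand. It stood at 229.6 and 218.8 CPM in the wild-type libraries, 178.1 and 174.6 in knockout libraries and 113.7 and 115.6 in Smad7-labelled ones. Each group lay wholly below the one before. Kat2a was lower in knockout than in wild-type libraries (−0.35, SE 0.038, adjusted p = 2.5e-15) and fell again in the Smad7-labelled libraries (−0.62, SE 0.041, adjusted p = 4.5e-31), where it reached 0.512 of the wild-type level. Both calls held under all 13 alternatives. The median of genes on chromosome 11 was −0.19 in the knockout and −0.08 in the second step.

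Kat2b, which encodes PCAF, lies on chromosome 17, 53566861 to 53672720, on the plus strand. Its level was 125.7 and 119.0 CPM in the wild-type libraries, 140.9 and 138.4 in knockout libraries and 122.6 and 112.8 in Smad7-labelled ones. The knockout was highest, and the other groups overlapped. Kat2b rose in the knockout (0.19, SE 0.042, adjusted p = 2.8e-05) and fell in the Smad7-labelled libraries (−0.25, SE 0.043, adjusted p = 7.6e-08). The rise was not called by DESeq2 (adjusted p = 0.052), and the fall was −0.001 with library size scaling.

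Paired within libraries, Kat2a had 1.83 and 1.84 counts for each count of Kat2b in the wild-type libraries, 1.26 and 1.26 in knockout libraries and 0.927 and 1.02 in the Smad7-labelled libraries. The 3 groups did not overlap, and replicates lay close in wild type and knockout, with SDs of 0.0069 and 0.0021 on the log2 scale. The log2 ratio differed by −0.54 between knockout and wild type and by −0.37 in the second step (exact permutation p = 0.33 for each, 0.37 adjusted, again the smallest possible). With GC and length offsets these differences were −0.71 and −0.25.

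The bases before the start sites of Kat2a and Kat7, the members that fell most between wild type and the Smad7-labelled libraries, are shown with those of Kat2b, whose level in the Smad7-labelled libraries overlapped wild type. Each is the 250 bases before a RefSeq start on GRCm38.p6, 5′ to 3′ on the gene's strand, and capitals mark the letters TGACG, the core of a cAMP response element, on either strand. The windows are chr11:100712468-100712717 for Kat2a and chr11:95310247-95310496 for Kat7, both on the minus strand, and chr17:53566721-53566970 for Kat2b on the plus strand.
Kat2a: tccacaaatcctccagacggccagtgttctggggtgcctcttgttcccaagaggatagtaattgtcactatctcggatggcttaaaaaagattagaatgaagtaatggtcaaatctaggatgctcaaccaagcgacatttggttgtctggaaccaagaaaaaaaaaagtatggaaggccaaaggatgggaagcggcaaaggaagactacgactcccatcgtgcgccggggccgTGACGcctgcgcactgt
Kat7: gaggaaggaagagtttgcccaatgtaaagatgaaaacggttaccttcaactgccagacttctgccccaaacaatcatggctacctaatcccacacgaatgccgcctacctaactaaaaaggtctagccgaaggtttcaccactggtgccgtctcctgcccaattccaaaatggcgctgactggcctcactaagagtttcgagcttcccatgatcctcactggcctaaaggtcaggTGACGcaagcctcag
Kat2b: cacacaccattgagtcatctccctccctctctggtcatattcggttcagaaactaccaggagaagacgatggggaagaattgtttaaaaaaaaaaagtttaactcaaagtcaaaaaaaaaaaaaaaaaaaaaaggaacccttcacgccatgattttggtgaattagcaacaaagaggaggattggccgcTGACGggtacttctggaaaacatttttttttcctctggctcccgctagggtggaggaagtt
Each of these windows held 1 match to TGACG, which 17.8% of 32851 promoter windows of this length held. The Smad box CAGAC, searched on both strands, had 2 matches before Kat2a, 1 before Kat7 and 0 before Kat2b, and 42.2% of all windows held it. The GC box GGGCGG, held by 32.7% of windows, had 0 matches in all 3. The G+C content of the windows was 48.8%, 50.8% and 40.8%. Part of the Kat2b window, the first of 2 for that gene, lies in an exon of a noncoding transcript of Kat2b, and part of the Kat7 window in an exon of the antisense gene Gm11520. Of the 10 members, 9 had a window in the table. Among members with a single window not printed here, CAGAC had 0 matches before Hat1, 1 before Ep300 and 0 before Crebbp. TGACG had 0 matches before Hat1, Ep300 and Crebbp, in each window of Kat6b and in the other Kat2b window. It had 1 match in each window of Kat5 and in the first Kat8 window, and 0 in the other Kat8 window. Hat1 and Ep300 were also lower in Smad7-labelled than in wild-type libraries. A link between matches and levels was not tested.

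**Figure D3:**
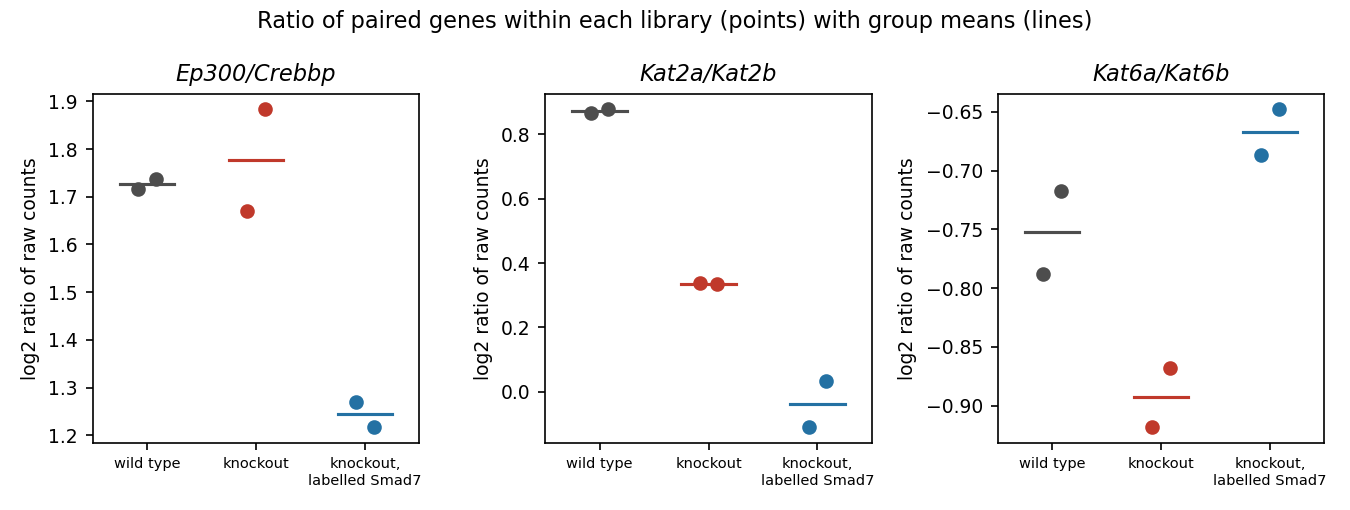
Log2 ratio of raw counts within each library (vertical axes) for Ep300 over Crebbp, Kat2a over Kat2b and Kat6a over Kat6b. Points are libraries and lines are group means. Kat2a over Kat2b steps down from 0.87 to 0.34 and −0.04, and Ep300 over Crebbp is lower in the Smad7-labelled libraries alone.

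The MYST gene Kat7 fell in both steps. HBO1, its product, acetylates histone H3 and H4 and is tied to replication origins and transcribed genes. Kat7 lies on chromosome 11, 95274259 to 95310246, on the minus strand, and stood at 304.6 and 311.0 CPM in the wild-type libraries, 260.3 and 245.4 in knockout libraries and 153.8 and 158.3 in Smad7-labelled ones. The groups were separate, in falling order. It fell in the knockout (−0.28, SE 0.037, adjusted p = 6.7e-12), a call that ended against a 1.2-fold minimum, and by 0.70 on the log2 scale in the second step (SE 0.039, adjusted p = 2.1e-37). Its level in the Smad7-labelled libraries was 0.507 of wild type.

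Kat5 encodes TIP60, the catalytic subunit of the NuA4 complex with roles in DNA repair. It lies on chromosome 19, 5603014 to 5610237, on the minus strand. Kat5 stood at 38.9 and 42.4 CPM in the wild-type libraries, 33.9 and 37.1 in knockout libraries and 21.9 and 22.6 in Smad7-labelled ones. The fall in the knockout (−0.20, SE 0.065, adjusted p = 0.0048) was not called without wild-type replicate 2 (adjusted p = 0.15), without knockout replicate 1 (0.14) or with library size scaling (0.47). The fall in the Smad7-labelled libraries was larger (−0.67, SE 0.073, adjusted p = 1.7e-15) and held under all 13 alternatives. Its exons share 426 bases with Rnaseh2c on the other strand, and without a stated strand setting reads of these bases cannot be assigned. Rnaseh2c had 454 and 486, 530 and 540, and 192 and 212 counts in the 3 groups.

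Kat8 encodes MOF, which acetylates histone H4 at lysine 16. It lies on chromosome 7, 127912516 to 127925837, on the plus strand. Kat8 stood at 29.1 and 29.6 CPM in the wild-type libraries, 36.9 and 37.4 in knockout libraries and 26.1 and 26.8 in Smad7-labelled ones. The knockout was above both other groups, which did not overlap. Kat8 rose 1.26-fold in the knockout (0.34, SE 0.068, adjusted p = 4.6e-06) and fell in the Smad7-labelled libraries (−0.49, SE 0.070, adjusted p = 2.5e-10). Between Smad7-labelled and wild-type libraries it did not pass (−0.15, adjusted p = 0.053), but passed with the replicate block (adjusted p = 0.044) and 3 other alternatives, RLE scaling among them (−0.20, adjusted p = 0.010). With library size scaling it passed upward (0.24, adjusted p = 0.0020). Its exons share 122 bases with Prss8 on the other strand, a gene of 41 to 100 counts per library.

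Kat6a and Kat6b encode the paralogues MOZ and MORF, which acetylate histone H3 within complexes scaffolded by BRPF proteins. Kat6a (chromosome 8, 22859535 to 22943259, plus strand) stood at 215.9 and 216.6 CPM in the wild-type libraries, 210.7 and 205.2 in knockout libraries and 178.4 and 186.1 in Smad7-labelled ones. Its difference between knockout and wild type was −0.06 (SE 0.038, adjusted p = 0.18). It turned to 0.09 with library size scaling and passed downward with RLE scaling, DESeq2 and GC and length offsets, so it has no settled direction there. Kat6a fell in the second step (−0.19, SE 0.038, adjusted p = 4.6e-06), which turned to 0.06 with library size scaling, and stayed 0.23 below that scaling's median.

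Kat6b (chromosome 14, 21481434 to 21672478, plus strand) stood at 372.8 and 355.9 CPM in the wild-type libraries, 398.2 and 374.6 in knockout libraries and 287.2 and 291.5 in Smad7-labelled ones. The lowest knockout library lay just above the highest wild-type library, and the Smad7-labelled libraries lay below both groups. Its rise in the knockout was small (0.09, SE 0.036, adjusted p = 0.031). That call was lost under 5 of 13 alternatives, among them the omission of wild-type replicate 2 (adjusted p = 0.37) or knockout replicate 1 (0.44), and turned to −0.04 with GC and length offsets. Kat6b fell in the second step (−0.42, SE 0.037, adjusted p = 5.4e-21), which held under all 13. The log2 ratio of Kat6a to Kat6b was −0.75 ± 0.050 for wild type, −0.89 ± 0.036 for the knockout and −0.67 ± 0.028 for Smad7-labelled libraries (SD, n = 2), without overlap, and the exact permutation p was 0.33 for each comparison.

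Hat1 lies on chromosome 2, 71388958 to 71441622, on the plus strand. It stood at 462.3 and 479.5 CPM in the wild-type libraries, 487.9 and 504.2 in knockout libraries and 311.3 and 295.7 in Smad7-labelled ones. The Smad7-labelled libraries were lowest by far. Between knockout and wild type the log2 fold was 0.08 (SE 0.036, adjusted p = 0.054). It passed under 7 of 13 alternatives, among them the replicate block (adjusted p = 0.021). Hat1 fell by 0.71 on the log2 scale in the second step (SE 0.037, adjusted p = 3.9e-41) and held under all 13 alternatives.

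As a share of the counts of the 10 genes, which does not depend on scaling, Hat1 took 20.98% and 22.2% in the wild-type libraries, 23.67% and 25.04% in knockout libraries and 20.6% and 19.36% in Smad7-labelled ones. Crebbp took 4.49% and 4.13%, 3.64% and 3.14%, and 5.74% and 6.26%. Kat2a took 10.42% and 10.13%, 8.64% and 8.67%, and 7.53% and 7.57%. Kat7 took 13.82% and 14.4%, 12.63% and 12.19%, and 10.18% and 10.37%. Ep300 took 14.76% and 13.77%, 11.59% and 11.59%, and 13.85% and 14.55%. Its share in the Smad7-labelled libraries thus lay within the wild-type range. Kat2b took 5.71% and 5.51%, 6.84% and 6.87%, and 8.11% and 7.39%. Thus within the set Kat2a and Kat7 stepped down over the groups and Kat2b stepped up. The share of Crebbp was highest in the Smad7-labelled libraries. A share also depends on the other members.

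The acetyltransferases work with partner subunits and cofactors, listed here as 98 genes in 8 lists, of which 97 were tested. In the knockout 22 of them rose and 59 fell, with a median log2 fold of −0.17. Among all genes 34.5% were called higher and 33.3% lower there. Of genes at least as abundant as Kat8, 33.6% were higher and 51.2% lower, with a median of −0.12. On autosomes 17 of 90 partners rose (18.9%) and 58 fell (64.4%). On the X chromosome, where 67.8% of all genes were called higher and the median was 0.87, 5 of 7 partners rose: Msl3 (1.35), Ogt (0.82), Jade3 (0.51), Rbbp7 (0.50) and Pdha1 (0.46). In the Smad7-labelled libraries against the knockout 19 partners rose and 68 fell, with a median of −0.37. There 37.8% of all genes were higher and 36.8% lower. Of genes at least as abundant as Kat8, 26.3% were higher and 62.3% lower, with a median of −0.30. The shares for each comparison are also the background for the list counts below. Members of these lists were chosen with results of these data known, so their counts are a description.

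**Figure D4:**
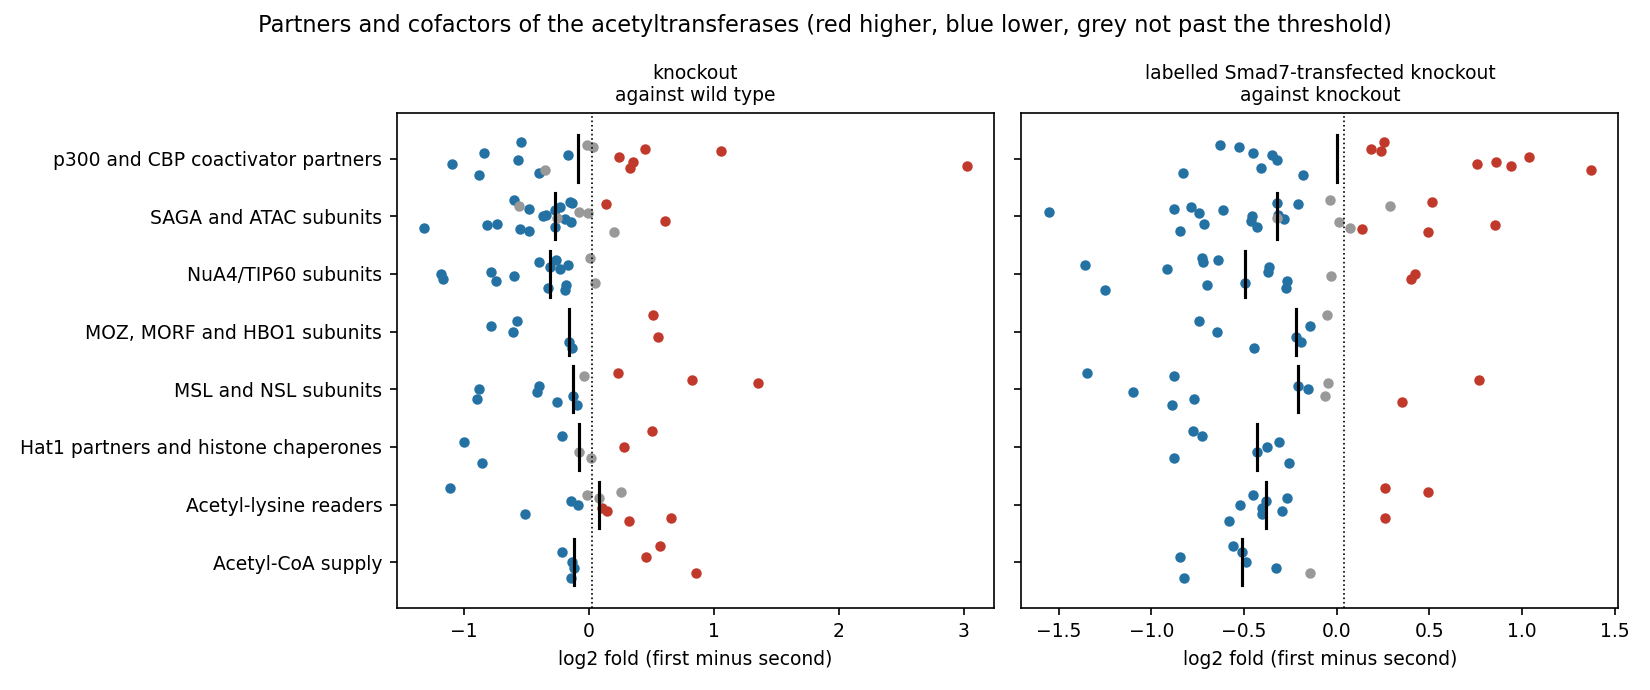
Log2 fold of each partner gene by list (horizontal axes) in knockout against wild type (left) and Smad7-labelled against untransfected knockout libraries (right). Red points are called higher, blue lower and grey are not past the threshold, the bars are list medians and the dotted line is the median of all genes. The NuA4/TIP60 list has 0 red points on the left, and the list of Hat1 partners has 0 on the right.

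Of 16 partners of p300 and CBP, 6 rose and 7 fell in the knockout (median −0.09). Creb1, which encodes the phosphorylated factor that CBP was named for, stood at 79.5 and 75.2 CPM in the wild-type libraries, 37.3 and 35.1 in knockout libraries and 64.3 and 58.4 in Smad7-labelled ones. It fell by 1.10 on the log2 scale (adjusted p = 1.3e-40) and rose by 0.76 in the second step (adjusted p = 7.0e-25), the same order of directions as Crebbp. The related factor Atf1 (−0.88) and the histone chaperone Nap1l1 (−0.84) also fell in the knockout. From knockout to Smad7-labelled libraries 8 of 16 rose and 8 fell (median 0.001). The p53 inhibitor Mdm4 rose from 350 ± 5.6 to 719 ± 14 CPM (1.04), while the methyltransferase Carm1 (−0.83) and the coactivator Ncoa3 (−0.53) fell.

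Of 23 subunits of SAGA and ATAC, the complexes of GCN5 and PCAF, 2 rose and 16 fell in the knockout (median −0.27), and those of smallest adjusted p were Eny2 (−1.32), Zzz3 (−0.60) and Atxn7l3 (−0.48). Eny2 and Atxn7l3 belong to the deubiquitinase module of SAGA, and Zzz3 to ATAC. In the second step 4 rose and 14 fell (median −0.32). Taf10 fell from 59.2 ± 0.75 to 20.2 ± 1.0 CPM (−1.55), Taf5l changed by −0.88 and Atxn7l3 again by −0.84.

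The list for NuA4, the complex of TIP60, holds 15 subunits, and all were tested. It leaves out Trrap, counted above with SAGA and ATAC, which rose in the knockout (0.14, adjusted p = 0.00047). In the knockout 0 of the 15 listed rose and 13 fell, with a median of −0.31. By unadjusted p or DESeq2 the counts were also 0 and 13. The scaffold subunits Epc2 (−1.17) and Epc1 (−0.74) and the reader Mbtd1 (−1.19) were among them. Of these 15, 2 rose in the second step, Epc2 (0.40) and Mbtd1 (0.43), and 12 fell (median −0.49). Ruvbl1, an ATPase that NuA4 shares with other complexes, fell from 120 ± 2.3 to 47.0 ± 0.64 CPM (−1.36). Actl6a, also shared, changed by −1.25 and Morf4l1 by −0.92.

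Of 7 tested subunits of the MOZ, MORF and HBO1 complexes, 2 rose and 5 fell in the knockout (median −0.16). The HBO1 scaffold Jade1 fell from 924 ± 31 to 535 ± 31 CPM (−0.79), and Ing5 (−0.61) and Jade2 (−0.58) fell with it. In the second step 6 fell and 0 rose (median −0.22, and 0 higher by unadjusted p and DESeq2), with Jade2 at −0.75, Ing5 at −0.65 and Brd1 at −0.45.

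Of 11 subunits of the MOF complexes MSL and NSL, 3 rose and 7 fell in the knockout (median −0.13), with the X-linked glycosyltransferase Ogt at 0.82, Kansl2 at −0.90 and Msl1 at −0.88. Then 2 rose and 7 fell in the second step (median −0.21). Wdr5, which is shared with H3K4 methyltransferase complexes, fell from 484 ± 3.6 to 191 ± 3.5 CPM (−1.34), and Hcfc1 (−0.89) and Phf20 (−0.88) fell.

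Of 7 partners of HAT1 and histone chaperones, 2 rose and 3 fell in the knockout (median −0.08). Nasp, a chaperone of the H3 and H4 pair, fell from 1904 ± 27 to 954 ± 2.5 CPM (−0.997), Asf1a changed by −0.86 and the X-linked HAT1 partner Rbbp7 by 0.50. In the second step all 7 fell and 0 rose (also by unadjusted p and DESeq2), with a median of −0.43, among them Asf1b (−0.88), Rbbp7 (−0.78) and Rbbp4 (−0.72). In that step 62.3% of genes at least as abundant as Kat8 were lower, with a median of −0.30.

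Of 11 readers of acetyl-lysine, 4 rose and 4 fell in the knockout (median 0.08), with Trim33 at −1.11, the BET protein gene Brd2 at −0.51 and Baz2b at 0.65. With Smad7 labelled as added, 3 rose and 8 fell (median −0.38), with Baz2a at −0.58, Brd7 at −0.52 and Brd2 again at −0.41. Of 7 genes of acetyl-CoA supply, 3 rose and 4 fell in the knockout (median −0.12). The citrate carrier Slc25a1 (0.57), the nuclear and cytosolic synthetase Acss2 (0.86) and the X-linked Pdha1 (0.46) rose. In the second step 6 fell and 0 rose (median −0.51, and 0 higher by unadjusted p and DESeq2). Acly, which makes cytosolic acetyl-CoA from citrate, fell from 597 ± 2.0 to 337 ± 12 CPM (−0.82), with Pdha1 at −0.84 and Pdhb at −0.51.

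Between Smad7-labelled and wild-type libraries 16 of 97 partners were higher and 75 lower, with a median of −0.61, against 28.6% higher, 63.1% lower and a median of −0.38 for genes at least as abundant as Kat8. All 15 listed NuA4 subunits and all 7 listed HAT1 partners and chaperones were lower, while Trrap, listed with SAGA and ATAC, was not called (−0.07, adjusted p = 0.078). Kansl2 (−1.67), Taf10 (−1.64) and Ruvbl1 (−1.52) stood lowest, and Ogt, at 246.4 and 246.8 CPM in wild type and 755.3 and 729.7 CPM in the Smad7-labelled libraries, was 1.59 higher.

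The genes most like Ep300 and Crebbp were ranked by the root mean square difference of centred log2 CPM over the 6 libraries. The ranking covered 10329 genes with a mean of at least 5 CPM, without clone names (Gm plus digits, or ending in Rik). Closest to Ep300 were Tusc2 (0.019), Prdm10 (0.027), Zscan10 (0.038), Tulp3 (0.038) and Spred2 (0.039). Closest to Crebbp were the DNA demethylase gene Tet2 (0.054), Smad7 (0.060), Ablim1 (0.063), Sacm1l (0.071) and Ccdc57 (0.074). Tet2 stood at 407.0 and 385.7 CPM in the wild-type libraries, 293.6 and 268.7 in knockout libraries and 367.7 and 377.3 in Smad7-labelled ones. Among the other members, Kat6a was nearest to Ep300 (0.154), but only at rank 1007 of 10329. Ep300 was the member nearest to Crebbp (0.248), at rank 1211. These values describe 6 libraries in 3 groups and carry no test.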

How the data were processed

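The authors deposited raw read counts for each gene symbol in 1 table. STAR and featureCounts 1.6.3 and the builds mm10 and GRCm38 appear in the submitters' processing notes, with no role. The sources used here do not give the annotation, strand setting or treatment of shared reads. The kit was TruSeq RNA, per the labels' protocols. Of the columns, 6 matched a label, and 2 that matched none were used in no step.

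Genes were filtered with filterByExpr, leaving 17342, scaled with TMM, and tested by robust quasi-likelihood F tests of edgeR 4.0.16 (limma 3.58.1, R 4.3.3) in 1 fit of 3 groups, which leaves 3 residual degrees of freedom. The p-values were adjusted after Benjamini and Hochberg across the whole table, and calls needed an adjusted p under 0.05. The common biological coefficient of variation was 2.47%. The labels call the replicates biological and do not mention separate cultures. The tests then reflect only how far these libraries spread, and that spread may be technical. Replicates differed by more than sampling noise (chi-square per degree of freedom 1.57 to 1.89). Alternatives were RLE and library size scaling, DESeq2 1.42.0, other filters, a fit of only 4 libraries, a replicate block, glmTreat against 1.2-fold, offsets for GC content and length (mgcv 1.9.3, values for 97.8% of genes) and each replicate left out. The fit was tested on simulated data of 16383 genes for knockout against wild type. It recovered 44% of 50 genes changed 1.25-fold and 66% of 50 changed 2-fold. Of 137 genes called there, 4 were false. Changes as small as those of most members can thus be missed.

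Positions and lengths came from GENCODE release M21 (GRCm38) by symbol, matched for all 10 members, and promoters from RefSeq. The members and lists were chosen with earlier results of these data known. All members are named, with 3 partners per list and comparison, those of smallest adjusted p among called genes with a mean of at least 5 CPM and groups that did not overlap. Other genes named from the lists, among them Msl3, Jade3 and the later values of genes named earlier, were chosen after their values were seen. Marker lists covered embryonic stem cells, fibroblasts, primitive endoderm, trophectoderm, neuroectoderm, mesoderm and 2-cell-like cells.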

Additional observations from a re-analysis of the deposited data

How the results depend on the processing

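Ep300, Crebbp and Kat2a fell in the knockout under all 13 alternatives, and Crebbp rose and Kat2a, Kat5, Kat6b, Kat7, Kat8 and Hat1 fell in the Smad7-labelled libraries under all 13. Library size scaling shifted the median of all genes from 0.02 to 0.17, 0.04 to 0.29 and 0.09 to 0.48 in the 3 comparisons (knockout to wild type, Smad7-labelled to knockout, Smad7-labelled to wild type), and the share of calls that were higher from 50.9% to 61.7%, 50.7% to 65.7% and 52.6% to 68.3%. With it 5, 2 and 4 members were higher (3, 1 and 0 in the reported fit), 38 partners were lower in the first comparison (59) and 29 higher in the last (16). Kat6a turned to 0.088 in the first comparison, Ep300 to 0.119 and Kat6a to 0.058 in the second, and Crebbp to 0.351, Kat2b to 0.334, Kat6a to 0.146, Kat6b to 0.060 and Kat8 to 0.241 in the last. DESeq2 called 1 member higher in the knockout. Against a 1.2-fold minimum 0 members rose and 3 fell in the knockout, with 14 partners higher and 32 lower, and 12 partners rose in the second comparison. With GC and length offsets 12 partners rose there, Kat6b in the knockout was −0.039, and the ratio changes were −0.423 (Ep300 to Crebbp, last comparison), −0.711 and −0.249 (Kat2a to Kat2b, first and second) and 0.159 and 0.043 (Kat6a to Kat6b, second and last). With at least 1 CPM in 4 libraries Crebbp was 0.066 and Kat2b 0.050 in the last comparison. The cause of these shifts was not tested.

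With each replicate left out, 2 to 3 members rose and 4 to 5 fell in the knockout, 1 rose and 9 fell in the second comparison, and 0 were higher and 7 to 9 lower in the last. Partners numbered 19 to 23 higher and 50 to 58 lower, then 16 to 17 and 65 to 70, then 14 to 15 and 73 to 74. The ratio change of Ep300 to Crebbp in the knockout ran from −0.056 (without knockout replicate 2) to 0.156, around 0.050. In the last comparison Crebbp ran from −0.136 (without wild-type replicate 2) to 0.026 (without Smad7-labelled replicate 1), with 0.013 without wild-type replicate 1, and Kat2b from −0.119 (without wild-type replicate 2) to 0.012 (without Smad7-labelled replicate 2).

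Replicate numbers were not shown to pair the libraries, since deviations of same-numbered libraries correlated at 0.11, 0.03 and 0.07. With the replicate block 4 members rose and 5 fell in the knockout, 1 and 9 in the second comparison, and 0 and 8 in the last, the added members being Hat1 (adjusted p = 0.021) and Kat8 (0.044). With 2 libraries per group, no permutation test of a ratio could pass 0.05.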
